A study of Mus musculus with 12 samples.

Results

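10 genes of mitochondrial fatty acid oxidation were described: Cpt1a, Cpt2, Acadl, Acadm, Acadvl, Decr1, Hadha, Hadhb, Acaa2 and Etfdh. Members were taken by name, as every probe set whose annotated gene symbol or older synonym is one of the 10. Of the 10 genes, 9 had a named probe set, and no probe set here was named for Hadha. The 9 genes had 11 probe sets among the 12422 probe sets of the array that are not controls, and 8 of the 11 (1 each for 8 genes) passed the filter on low values that kept 6897 probe sets in all.

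Transcripts were measured with 12 Affymetrix arrays in 4 lines of mouse embryonic fibroblasts, each on 3 arrays. The double line expressed KSR1, H-RasV12 and GFP, the KSR1 line expressed KSR1 and GFP, the H-RasV12 line expressed H-RasV12 and GFP, and the GFP line expressed GFP alone. All 4 lines had the KSR1 -/- genotype on a DBA background, so the GFP line had neither its own KSR1 nor a KSR1 transgene, and all 4 carried GFP. KSR1 is a scaffold for the kinases Raf, MEK and ERK, and H-RasV12 is an oncogenic, constitutively active Ras. Each condition was 1 cell line, and nothing in the labels says that its 3 arrays came from separate cultures, so the p-values measure the spread between arrays of 1 line, which may be technical.

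Mitochondrial fatty acid oxidation shortens fatty acyl chains to acetyl-CoA. Long chains enter the mitochondrion as carnitine esters, an acyl-CoA dehydrogenase opens each round, a hydratase and a second dehydrogenase follow, and a thiolase cuts the chain, while electrons pass through electron transfer flavoprotein to the respiratory chain. Heart, muscle and liver are known for high rates of the pathway, and the PPAR and estrogen-related receptors with their coactivator PGC-1alpha (Ppargc1a) are known regulators of its genes.

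Values are MAS5 signals, a linear brightness scale on which the authors' scaling gave every array a 2% trimmed mean of 500.3, and probe sets of different genes are not compared in level. Changes are log2 fold changes ± SE on the log2(signal + 23) scale from 1 limma fit to all 12 arrays, adjusted by Benjamini-Hochberg over all 6897, with adjusted p under 0.05 as the threshold for a call. On this scale the median over all tested probe sets was -0.07 for the double line against the KSR1 line, and centring each array on its median shifted it by 0.16 to 0.09. In bulk RNA, fewer cells of a type and less RNA per cell cannot be told apart. The number of arrays, 3 per group, limits the precision.

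Array medians ran from 160.6 to 216.5. The 18S ribosomal RNA control (3 prime probe set) read 146.4 on replicate 1 of the double line, 394.7 on replicate 1 of the KSR1 line, and 344.6 and 515.7 on replicates 1 and 3 of the GFP line, against 1114 to 3312 on the other 8 arrays, and results without any replicate 1 array are given where they differ. One Ksr1 probe set (92765_s_at) read 140.8 to 301.2 in the double line, 207.3 to 1605 in the KSR1 line, 14.23 to 32.19 in the H-RasV12 line and 21.11 to 143.7 in the GFP line, so the lowest double line array and the highest GFP array overlapped. The other Ksr1 probe set (92764_at) read 265.2 to 323.7 in the double line and 216.2 to 366.3 in the KSR1 line. It read 180.2 to 231.1 in the H-RasV12 line and 225.5 to 324 in the GFP line. On this probe set the double line lay above the H-RasV12 line, and every other pair of lines overlapped. Whether either lies in the deleted part is not given in the sources used here. The fibroblast markers Col1a1, Col1a2, Fn1 and S100a4 were bright, whereas Thy1 and Vim were below the filter. The 8 fibroblast markers summed to 17102 to 26576 in the double line, 27944 to 33269 in the KSR1 line, 40687 to 56801 in the H-RasV12 line and 37749.8 to 55771 in the GFP line. Of the 6 past the filter, 2 fell in the double line against the KSR1 line (Col1a1 and Pdgfrb), 3 fell against the H-RasV12 line and 3 against the GFP line. In the KSR1 line 1 fell against the GFP line, and the part of these changes in the results below was not tested.

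The enzymes were higher in the double line than in the KSR1 line. Of the 8 tested, 6 rose and 0 fell (Cpt2, Acadm, Decr1, Hadhb, Acaa2 and Etfdh), by 1.02 to 1.70 on the log2 scale, and each of the 6 had all its double line arrays above all its KSR1 line arrays. Over all probe sets 8.16% rose and 6.92% fell in this comparison, and 13.9% had every double line array above every KSR1 line array. The median change of the 8 was 1.31, against -0.07 over all tested probe sets. H-RasV12 without KSR1 called none of the 8 by limma, in a comparison that called 0.0725% of all probe sets, so the count of 0 says nothing particular to the enzymes.

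A sign of RNA quality differed between the double and KSR1 lines, and between the KSR1 and GFP lines. The 3 over 5 prime ratio of the beta-actin control was 1.61, 1.34 and 1.73 in the double line and 1.18, 1.07 and 1.26 in the KSR1 line. The H-RasV12 line gave 1.34, 1.09 and 1.62 and the GFP line 1.72, 1.32 and 1.77. The double line arrays were all above the KSR1 line arrays and overlapped those of the GFP line. The KSR1 line arrays were also all below the GFP line arrays. The Gapdh control ratio overlapped (0.799 to 0.846 in the double line, 0.74 to 0.847 in the KSR1 line), and the part of these ratios in the results was not tested.

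**Figure D1:**
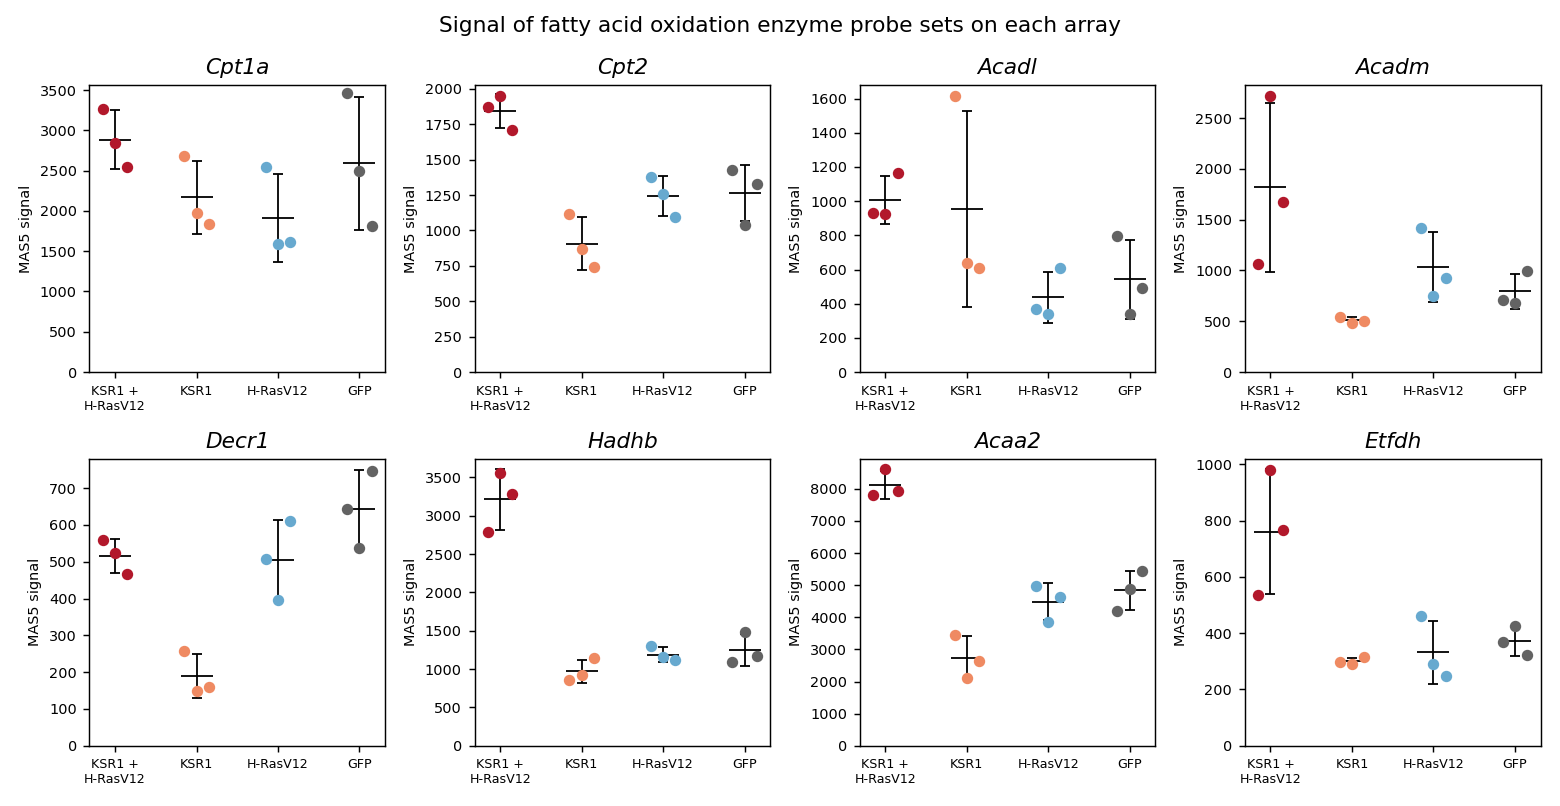
MAS5 signal (linear axis from 0) of the 8 fatty acid oxidation probe sets past the filter, with 1 point per array for the double line (KSR1 + H-RasV12), KSR1, H-RasV12 and GFP lines, and the mean ± SD over 3 arrays as bars. The 3 double line points lie above all other points for Cpt2, Hadhb, Acaa2 and Etfdh, and the KSR1 line points lie below all others for Decr1, Acadm and Acaa2.

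Entry into the mitochondrion is described first. Cpt1a, the outer membrane carnitine palmitoyltransferase and the rate-setting step of long-chain entry, read 3269, 2837 and 2546 in the double line and 2683, 1979 and 1841 in the KSR1 line. Signals were 2548, 1592 and 1608 in the H-RasV12 line and 3459, 2497 and 1812 in the GFP line. All 4 groups overlapped for this gene, and no comparison called it. Its change in the double line was +0.42 ± 0.25 against the KSR1 line (95% interval -0.12 to 0.96, adjusted p = 0.305), +0.61 ± 0.25 against the H-RasV12 line (0.07 to 1.15, adjusted p = 0.128) and +0.20 ± 0.25 against the GFP line (-0.34 to 0.73, adjusted p = 0.703). Without the replicate 1 arrays the second of these passed the test, at +0.74 (adjusted p = 0.0408).

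Cpt2, the inner membrane transferase that returns the chain to coenzyme A, read 1874, 1948 and 1712 in the double line and 1113, 872.2 and 739.9 in the KSR1 line. It read 1380, 1259 and 1093 in the H-RasV12 line and 1429, 1042 and 1328 in the GFP line. The double line arrays were the 3 highest of the 12, and the other 3 lines overlapped in part. Mean signals were 1845 ± 121 in the double line and 908 ± 189 in the KSR1 line (SD, n = 3 each), a change of +1.02 ± 0.19 (limma adjusted p = 0.00186). Against the H-RasV12 line the change was +0.56 ± 0.19 (adjusted p = 0.0606) and against the GFP line +0.55 ± 0.19 (adjusted p = 0.0685), neither past the threshold, though after median centring both passed (+0.66, adjusted p = 0.028, and +0.63, adjusted p = 0.0338). A second Cpt2 probe set (161978_r_at) read 0.9064 to 9.151 on the 12 arrays, below the filter on all, and gave no usable comparison.

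The acyl-CoA dehydrogenases that open each round differ in the chain lengths they take. Acadm, the medium-chain enzyme, read 1061, 2714 and 1676 in the double line and 542.6, 477.8 and 505.9 in the KSR1 line. The H-RasV12 line gave 1418, 749.8 and 929.9 and the GFP line 711.8, 677.8 and 995.4. The KSR1 line held the 3 lowest arrays, and the double line spread widely, with a coefficient of variation of 46%. Acadm rose by 1.69 ± 0.30 in the double line against the KSR1 line (limma adjusted p = 0.00133) and by 1.09 ± 0.30 against the GFP line (adjusted p = 0.0227). The second call ended without replicate 2 or 3 of the double line (+0.75, adjusted p = 0.111, and +1.09, adjusted p = 0.0556), without GFP replicate 1 or 2 (+1.02, adjusted p = 0.0672, and +0.99, adjusted p = 0.0818), and with only the 2 groups in the fit (adjusted p = 0.054). Against the H-RasV12 line, where the arrays overlapped, the change was +0.75 ± 0.30 (adjusted p = 0.119), but +1.33 (adjusted p = 0.00734) without the replicate 1 arrays and +1.08 (adjusted p = 0.016) without double line replicate 1.

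Acadl, the long-chain enzyme, had another pattern. It read 931.8, 924.1 and 1166 in the double line and 1614, 637.5 and 606.1 in the KSR1 line. Signals were 367.4, 337.4 and 607 in the H-RasV12 line and 796, 339.7 and 490.4 in the GFP line. A single array, replicate 1, set the KSR1 line's mean and its coefficient of variation of 60.2%, and the double and KSR1 lines overlapped. The change was +0.22 ± 0.36 in the double line against the KSR1 line (95% interval -0.55 to 0.99, adjusted p = 0.749), which became +0.67 without KSR1 replicate 1, +0.72 without all replicate 1 arrays (adjusted p = 0.128) and -0.02 without KSR1 replicate 3. Acadl rose by 1.20 ± 0.36 in the double line against the H-RasV12 line (limma adjusted p = 0.0372), a call that ended when any 1 array of the double line, or replicate 1 or 2 of the H-RasV12 line, was left out (adjusted p from 0.0561 to 0.133) and without the filter (adjusted p = 0.0736). Against the GFP line it was +0.94 ± 0.36 (adjusted p = 0.103), with no overlap of the arrays, and the call was made without the replicate 1 arrays (+1.30, adjusted p = 0.0106), without GFP replicate 1 (+1.25, adjusted p = 0.0374) or without KSR1 replicate 1 (adjusted p = 0.0392).

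Acadvl, the very-long-chain enzyme, could not be followed. Its 2 probe sets read 1.968 to 18.48 (161623_at) and 1.924 to 25.91 (93334_at), below the filter of 181.4 on all 12 arrays and about the size of the added constant of 23. In the fit without a filter the first was -0.45 ± 0.12 in the double line against the KSR1 line (adjusted p = 0.0416), with 5.402, 6.059 and 4.315 against 15.76, 18.48 and 13.08, and the other probe set was -0.19 ± 0.20 (adjusted p = 0.664). These dim readings give no level for the transcript.

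Decr1 encodes the mitochondrial dienoyl-CoA reductase, an auxiliary enzyme for unsaturated chains. It read 558.6, 522.5 and 467.1 in the double line and 257.7, 150.1 and 158.9 in the KSR1 line. The H-RasV12 line gave 507.6, 395.6 and 611.5 and the GFP line 643.7, 536.3 and 747.5. The KSR1 line stood alone at the low end, and the other 3 lines overlapped. In the KSR1 line Decr1 fell by 1.67 ± 0.23 against the GFP line (limma adjusted p = 0.000191), a mean signal 0.294 times that of the GFP line. In the double line it rose by 1.38 ± 0.23 against the KSR1 line (adjusted p = 0.000833), while it was +0.05 ± 0.23 against the H-RasV12 line (95% interval -0.44 to 0.54, adjusted p = 0.934) and -0.30 ± 0.23 against the GFP line (-0.78 to 0.19, adjusted p = 0.468).

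Hadhb is the beta subunit of the mitochondrial trifunctional protein and carries its long-chain thiolase, whereas the alpha subunit Hadha, not measured here, carries the hydratase and the hydroxyacyl-CoA dehydrogenase. Hadhb read 2786, 3561 and 3287 in the double line and 852, 922 and 1142 in the KSR1 line. Signals were 1297, 1153 and 1120 in the H-RasV12 line and 1089, 1487 and 1176 in the GFP line. All double line arrays lay above all 9 others, and the other lines overlapped in part. It rose by 1.70 ± 0.18 in the double line against the KSR1 line (limma adjusted p = 2.62e-05), with mean signals of 3211 ± 393 and 972 ± 151 (SD, n = 3 each). The rises were 1.41 ± 0.18 against the H-RasV12 line (adjusted p = 9.42e-05) and 1.35 ± 0.18 against the GFP line (adjusted p = 0.000121), and all 3 calls held in every alternative run. KSR1 alone gave -0.35 ± 0.18 against the GFP line (adjusted p = 0.247).

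Acaa2, the mitochondrial thiolase for medium chains, read 7795, 8611 and 7934 in the double line and 3459, 2120 and 2643 in the KSR1 line. The H-RasV12 line gave 4979, 3851 and 4620 and the GFP line 4203, 4882 and 5434. The order was the double line above the H-RasV12 and GFP lines, which overlapped, and these above the KSR1 line. Acaa2 rose in the double line by 1.58 ± 0.19 against the KSR1 line (limma adjusted p = 7.79e-05), by 0.86 ± 0.19 against the H-RasV12 line (adjusted p = 0.00686) and by 0.75 ± 0.19 against the GFP line (adjusted p = 0.0157). In the KSR1 line it fell by 0.84 ± 0.19 against the GFP line (adjusted p = 0.0107). The call against the GFP line ended for the double line without its replicate 2 (+0.71, adjusted p = 0.0596) or GFP replicate 1 (+0.65, adjusted p = 0.0613), and for the KSR1 line without its replicate 2 (-0.67, adjusted p = 0.0644) or GFP replicate 3 (-0.75, adjusted p = 0.0606).

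Etfdh, the inner membrane oxidoreductase that passes electrons from electron transfer flavoprotein to ubiquinone, read 536.6, 978.5 and 767.4 in the double line and 296.2, 292 and 314.4 in the KSR1 line. Signals were 460.8, 290.6 and 248.5 in the H-RasV12 line and 368.5, 426.8 and 321.4 in the GFP line. The 3 highest arrays were the double line's, although they differed widely among themselves (coefficient of variation 29%). Etfdh rose in the double line by 1.24 ± 0.25 against the KSR1 line (limma adjusted p = 0.0033), by 1.14 ± 0.25 against the H-RasV12 line (adjusted p = 0.0055) and by 0.96 ± 0.25 against the GFP line (adjusted p = 0.0161). The last call ended without double line replicate 2 or 3 (+0.76, adjusted p = 0.082, and +0.93, adjusted p = 0.0507) or GFP replicate 3 (+0.86, adjusted p = 0.0741).

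**Figure D2:**
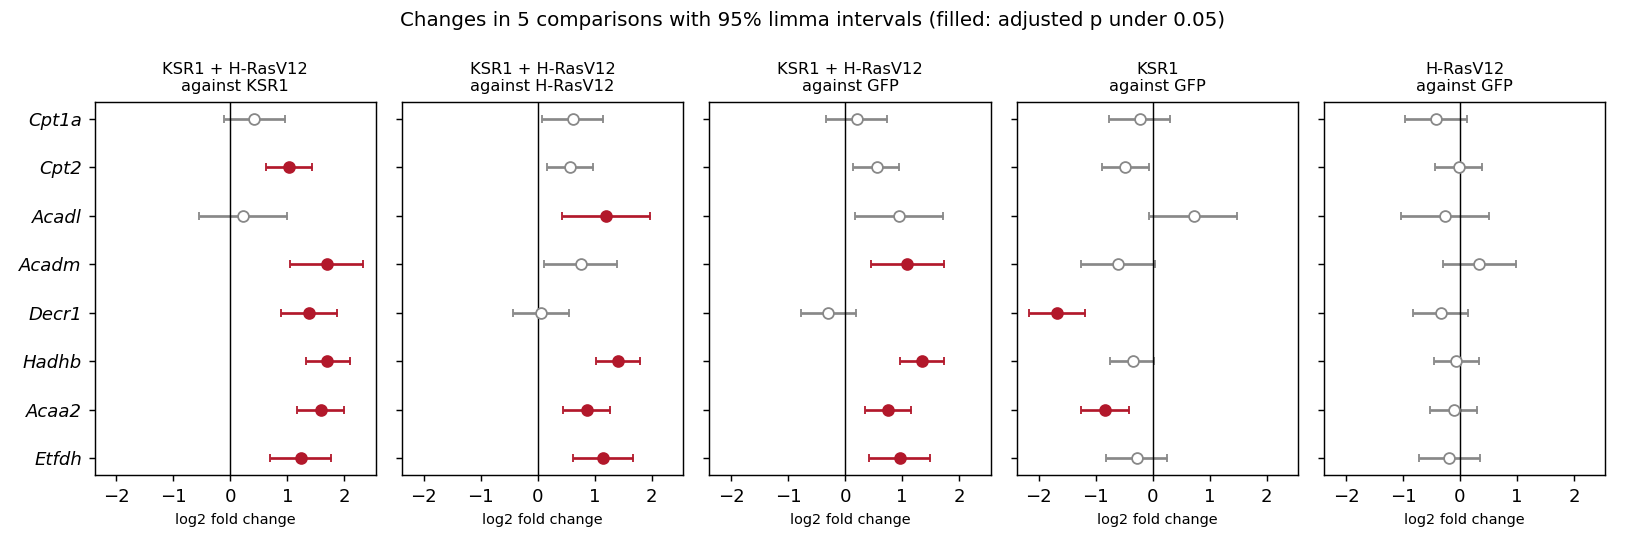
Log2 fold changes (horizontal axis, log2 units) of the 8 probe sets in 5 comparisons, with 95% limma intervals and filled points for adjusted p under 0.05. 6 points are filled in the double line against the KSR1 line, 4 in each of the other double line comparisons, 2 (both below 0) in KSR1 against GFP and 0 in H-RasV12 against GFP.

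Counted by comparison, 4 of the 8 rose and 0 fell in the double line against the H-RasV12 line (Acadl, Hadhb, Acaa2 and Etfdh), where 7.1% of all probe sets rose and 7.71% fell. The median change of the 8 was 0.80, against -0.05 over all. Against the GFP line 4 rose and 0 fell (Acadm, Hadhb, Acaa2 and Etfdh), where 7.71% of all rose and 7.93% fell, with a median of 0.84 against -0.02. That count was 1 without double line replicate 2 and 2 without its replicate 3. KSR1 without H-RasV12 gave 2 lower and 0 higher against the GFP line (Decr1 and Acaa2), where 4.97% of all rose and 6.81% fell, with a median of -0.42 against 0.04, and the count was 1 without GFP replicate 3 or KSR1 replicate 2. The double line comparisons share their double line arrays, and those against the GFP line share the GFP arrays.

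H-RasV12 without KSR1 was compared with the GFP line. None of the 8 enzymes was called in either direction by limma, and none had an unadjusted p under 0.05, with changes from -0.42 (Cpt1a) to 0.34 (Acadm) and a median of -0.15. All 8 had overlapping arrays in these 2 lines. Over all probe sets 0.0725% were called in either direction, 5 of 6897, and 411 had an unadjusted p under 0.05. The 95% interval of the difference was -0.45 to 0.33 for Hadhb, -0.52 to 0.30 for Acaa2 and -0.43 to 0.39 for Cpt2.

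The difference between the H-RasV12 response with KSR1 (double line minus KSR1 line) and that without it (H-RasV12 line minus GFP line) was tested as an interaction. It was positive for all 8 and called for 5: Hadhb at +1.76 ± 0.26 (limma adjusted p = 0.0009), Acaa2 at +1.70 ± 0.27 (adjusted p = 0.00167), Decr1 at +1.72 ± 0.32 (adjusted p = 0.00458), Cpt2 at +1.04 ± 0.27 (adjusted p = 0.0279) and Etfdh at +1.42 ± 0.35 (adjusted p = 0.0235). Over all probe sets 4.16% had a called positive interaction and 3.54% a called negative one, and the median of the 8 was 1.39 against -0.08. Acadm was at +1.35 ± 0.42 (adjusted p = 0.0715), and passed after median centring (+1.52, adjusted p = 0.0377), without the replicate 1 arrays (+2.04, adjusted p = 0.00796), without double line replicate 1 (+1.68, adjusted p = 0.0119) or without H-RasV12 replicate 1 (+1.60, adjusted p = 0.0395). Cpt1a was at +0.84 ± 0.36 (adjusted p = 0.195) and Acadl at +0.48 ± 0.51 (adjusted p = 0.675).

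For Decr1 and Acaa2 the KSR1 line lay below the GFP line past the threshold, and for Acadm without a call (509 ± 32.5 against 795 ± 174, SD, n = 3 each, -0.60 ± 0.30, limma adjusted p = 0.234). Hadhb, Acaa2 and Etfdh were called higher in the double line against each of the other 3 lines. The count of 5 was 3 without replicate 2 of the double line, replicate 2 of the KSR1 line, or replicate 2 or 3 of the H-RasV12 line, since the calls of Cpt2 (+0.95 to +1.05, adjusted p from 0.064 to 0.0762) and Etfdh (+1.22 to +1.40, adjusted p from 0.0566 to 0.0647) ended there. The Etfdh call also ended without GFP replicate 2 (+1.32, adjusted p = 0.0604), and the Cpt2 call without GFP replicate 1 or 3 or KSR1 replicate 3 (+0.95, +1.00 and +0.91).

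**Figure D3:**
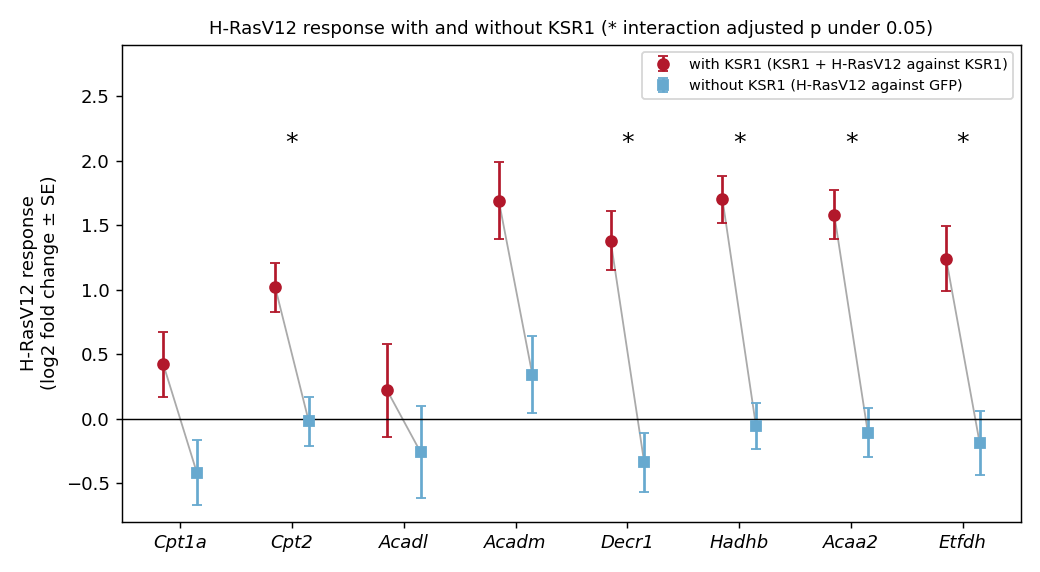
H-RasV12 response (log2 fold change ± SE) of each enzyme with KSR1 (circles, double line against KSR1 line) and without KSR1 (squares, H-RasV12 line against GFP line), with an asterisk where the interaction was called. The circles of Hadhb, Acadm and Acaa2 lie at 1.70, 1.69 and 1.58, and the squares of all 8 lie between -0.42 and 0.34.

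Promoter sequence was available for 8 of the 10 genes in the RefSeq table used (build GRCm38.p6, 250 bases before to 50 after each start), and Decr1 and Acaa2 were not in it. The extended half-site of estrogen-related receptors, TNAAGGTCA, was in 0 of the 8 windows on either strand, and in 1.28% of the 32851 windows of the table. The PPAR-type direct repeat of AGGTCA half-sites with 1 base between was in 0 of the 8, and in 0.0396% of all windows. A search for AGGTCA alone, which the longer motifs contain, was added after those results, and found it in 3 of the 8 (Acadm, Acadvl and Cpt1a), against 16.3% of all windows. A match describes letters in a window and does not show a bound site, and no match says only that these letters are not there.

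The upstream bases of 3 genes are shown, in the direction of each gene, to set an enzyme raised against each of the other lines (Hadhb) beside a raised and an uncalled enzyme that both hold a half-site (Acadm and Cpt1a). Capitals mark the half-site, here on the opposite strand, which starts 249 bases before the Acadm start and 94 before the Cpt1a start. Positions are chr5:30155003-30155252 (plus strand) for Hadhb, chr3:153944644-153944893 (minus strand) for Acadm and chr19:3323051-3323300 (plus strand) for Cpt1a, all GRCm38.p6.
Hadhb: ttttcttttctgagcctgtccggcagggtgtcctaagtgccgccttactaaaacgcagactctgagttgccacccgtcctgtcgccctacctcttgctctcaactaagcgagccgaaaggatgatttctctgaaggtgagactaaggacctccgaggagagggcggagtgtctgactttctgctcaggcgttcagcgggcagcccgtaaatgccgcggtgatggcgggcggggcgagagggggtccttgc
Acadm: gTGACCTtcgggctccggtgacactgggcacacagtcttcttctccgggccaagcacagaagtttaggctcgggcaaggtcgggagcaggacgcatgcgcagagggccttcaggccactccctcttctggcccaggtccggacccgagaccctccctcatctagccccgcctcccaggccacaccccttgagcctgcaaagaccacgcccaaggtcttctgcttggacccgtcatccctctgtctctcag
Cpt1a: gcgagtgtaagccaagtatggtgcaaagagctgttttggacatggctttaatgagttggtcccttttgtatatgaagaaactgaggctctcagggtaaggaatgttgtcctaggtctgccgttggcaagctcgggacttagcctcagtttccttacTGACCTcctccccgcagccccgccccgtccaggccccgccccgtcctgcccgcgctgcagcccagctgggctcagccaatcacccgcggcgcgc
The Hadhb stretch lies between 2 genes: Hadha starts at position 30154980 on the minus strand and Hadhb at 30155253 on the plus strand, with 272 bases between, so the genes of both trifunctional subunits leave from the same short interval. The share of G and C was 50.7% to 70.3% over the 8 windows, against a median of 52.7% over all windows.

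Other enzymes of the mitochondrial pathway also rose in the double line against the KSR1 line. For this list and those that follow, the shares over all probe sets in that comparison were 8.16% higher and 6.92% lower. From a list of 16 further genes, 12 were on the array and 11 were tested, and 5 rose and 0 fell: Echs1, Etfb, Eci2, Hadh and Etfa. Echs1, the short-chain enoyl-CoA hydratase, read 659.8, 780.6 and 987.4 in the double line and 481.3, 253.5 and 298.3 in the KSR1 line, a rise of 1.21 ± 0.25 (limma adjusted p = 0.00424). Etfb is the beta subunit of electron transfer flavoprotein, which passes electrons to Etfdh. Etfb read 2449, 2888 and 2133 in the double line and 1470, 1044 and 1137 in the KSR1 line (96947_at, +1.02 ± 0.20, limma adjusted p = 0.00249). A dim second Etfb probe set (162144_at) read 142.8, 203.6 and 172.4 in the double line against 334.2, 238.7 and 188 in the KSR1 line. The list's median change was 0.62, below the 1.31 of the 8 enzymes. Against the H-RasV12 line 2 rose (Etfa and Etfb) and against the GFP line 0 of 11 were called by limma. In the KSR1 line Echs1 fell by 0.98 ± 0.25 (adjusted p = 0.0193) and Eci2, an enoyl-CoA isomerase, fell by 0.88 ± 0.22 (adjusted p = 0.0184) against the GFP line, and 4 of the 11 had a called positive interaction.

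Peroxisomal oxidation, which shortens very long and branched chains, had a pair of called genes. Of 7 tested, 2 rose and 0 fell in the double line against the KSR1 line, Scp2 at +1.12 ± 0.29 (limma adjusted p = 0.0175) and Amacr at +0.82 ± 0.20 (adjusted p = 0.0114), and both fell in the KSR1 line against the GFP line (Scp2 fell by 1.54 ± 0.29, adjusted p = 0.00276, and Amacr fell by 0.64 ± 0.20, adjusted p = 0.0486). A second Scp2 probe set (95787_s_at) overlapped between the double and KSR1 lines, with 732.7, 1098 and 1041 against 524.4, 853.4 and 683.8.

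Among genes of fatty acid uptake, activation and storage, Plin2 changed by more in the double line against the KSR1 line than any of the 8 enzymes. Of 9 tested, 3 rose in the double line against the KSR1 line, 6 against the H-RasV12 line and 6 against the GFP line, with 0 lower in each. Over all probe sets 8.16%, 7.1% and 7.71% rose in these comparisons, in that order. Plin2, which coats lipid droplets, read 15576, 18016 and 18482 in the double line, 4111, 2748 and 3750 in the KSR1 line, 2244, 2446 and 1985 in the H-RasV12 line, and 1948, 1405 and 1542 in the GFP line, a rise of 2.30 ± 0.19 in the double line against the KSR1 line (limma adjusted p = 3.01e-06). Plin2 also rose in the KSR1 line against the GFP line, by 1.10 ± 0.19 (adjusted p = 0.00143). Lpl, the lipoprotein lipase, read 212.9, 773.9 and 1201 in the double line and 19.11, 11.91 and 24.18 in the KSR1 line (95611_at). It exceeded the filter value on the double line arrays alone and its KSR1 line signals are about the size of the added constant, so it had to differ to be tested, it counts among the 3, and no fold change is given. Slc27a1, a fatty acid transport protein, read 1757, 814.1 and 461.9 in the double line against 223.3, 37.51 and 24.32 in the KSR1 line, the last 2 also near the constant. Slc27a1 exceeded the filter value only on the double line arrays and KSR1 replicate 1, so it too passed the filter through the double line. No fold change is given for it either. Lpl and Slc27a1 both count among the genes that rose in all 3 double line comparisons. The double line arrays of both genes differed several-fold among themselves. Pdk4, the pyruvate dehydrogenase kinase that limits glucose oxidation and a known PPAR target, read 1706, 2019 and 2008 in the double line, 588.6, 251.4 and 145.2 in the KSR1 line, 287.6, 176.2 and 202.9 in the H-RasV12 line, and 238.5, 201.4 and 319.7 in the GFP line. Pdk4 rose by 2.66 ± 0.36 in the double line against the KSR1 line (limma adjusted p = 0.000151). It was the 1 of 2 tested genes of a short PPAR target list that rose. The other, Angptl4, was at +0.58 by its brightest probe set (96119_s_at), without a call. Mean Angptl4 signals in the double and KSR1 lines were 464 and 537 on probe set 102114_f_at, and 240 and 229 on 96118_at.

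Fatty acid synthesis moved both ways. Of 8 tested genes 2 rose and 1 fell in the double line against the KSR1 line: the elongase Elovl6 at +1.94 ± 0.26 (limma adjusted p = 0.000149), the desaturase Scd2 at +0.69 ± 0.19 (adjusted p = 0.0232), and ATP citrate lyase, Acly, at -0.64 ± 0.20 (adjusted p = 0.0406). Branched-chain amino acid and propionate oxidation, which also yields acyl-CoA in the mitochondrion, had 3 of 8 higher and 0 lower, with Bckdhb at +1.42 ± 0.24 (adjusted p = 0.000854), Mccc1 at +1.39 ± 0.28 (adjusted p = 0.00376) and Hibadh at +0.69 ± 0.18 (adjusted p = 0.0208). Bckdhb, a subunit of the branched-chain ketoacid dehydrogenase, was the 1 gene of that list lower in the KSR1 line than in the GFP line, at -1.84 ± 0.24 (adjusted p = 0.000119). Of 9 tested general mitochondrial proteins, 2 rose and 0 fell against the KSR1 line, Vdac2 (+1.26 ± 0.26, adjusted p = 0.0041) and Hspa9 (+1.04 ± 0.18, adjusted p = 0.00116), and the list's median was 0.45.

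**Figure D4:**
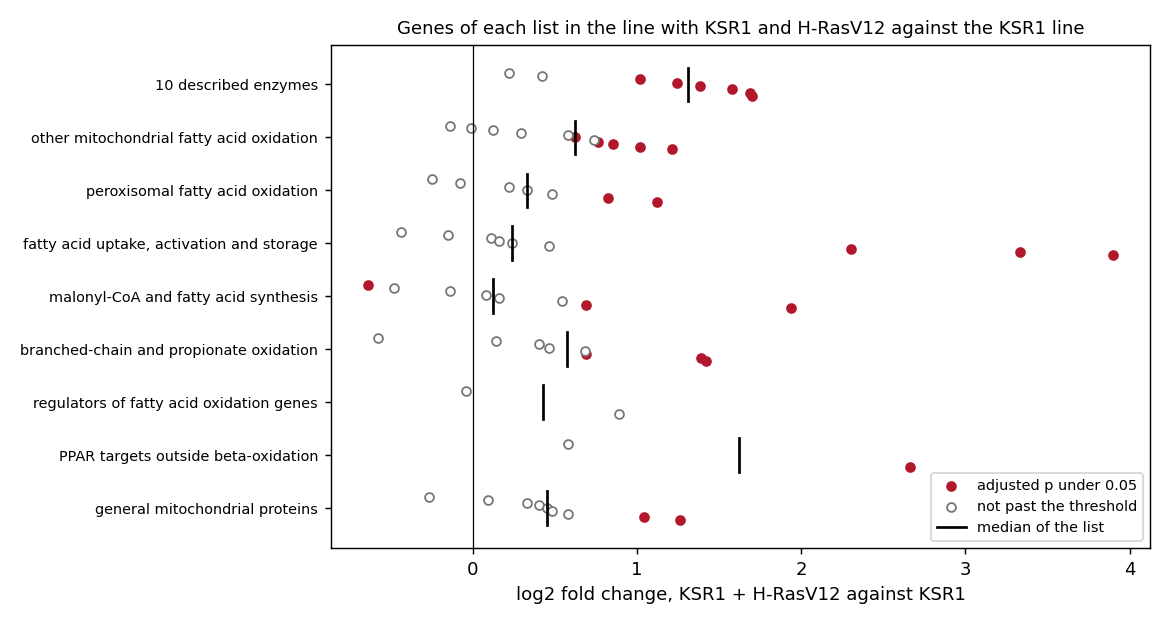
Log2 fold change (horizontal axis, log2 units) of each tested gene in the double line against the KSR1 line, by list, with filled points for adjusted p under 0.05 and a vertical line at each list's median. The medians are 1.31 for the described enzymes, 0.62 for other mitochondrial oxidation genes, 0.33 for peroxisomal genes and 0.45 for general mitochondrial proteins. They are 1.62 for the PPAR targets (2 genes), 0.57 for branched-chain and propionate oxidation and 0.42 for the regulators. Uptake, activation and storage has 0.24, and synthesis 0.12.

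The regulators were mostly dim. Of 7 listed genes 2 passed the filter, and among these Esrra, which encodes estrogen-related receptor alpha, rose in the double line by 1.61 ± 0.30 against the H-RasV12 line (103964_at, limma adjusted p = 0.00173) and by 1.30 ± 0.30 against the GFP line (adjusted p = 0.00754), with +0.89 ± 0.30 against the KSR1 line (adjusted p = 0.0598). A second, dimmer Esrra probe set (102145_f_at) read 371.9, 385.6 and 487.5 in the double line and 127.7, 84.57 and 173.1 in the KSR1 line, and exceeded the filter value on the double line arrays alone, so no test of it is given. Ppargc1a, below the filter on all arrays, read 55.32, 155.9 and 115.3 in the double line and 8.815, 29.16 and 14.19 in the KSR1 line. The H-RasV12 line gave 27.28, 12.94 and 5.901 and the GFP line 15.74, 16.05 and 11.8. Rxra, the other gene past the filter, was at -0.04 in the double line against the KSR1 line, without a call. The remaining listed regulators did not pass the filter, and their means follow for the double, KSR1, H-RasV12 and GFP lines in that order. Pparg had 67.8, 7.69, 165 and 129, and Ppara had 85.8, 112, 92.3 and 85.2. Ppard had 112, 66.5, 44.3 and 29.7, and Nrip1 had 113, 111, 162 and 154.

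The genes whose pattern was closest to the mean of the 8 enzymes were found by the root mean square difference of centred log2 values over the 12 arrays. The nearest outside the 10 were Slc12a7 (0.14), Ndufa8 (0.16), Rell1 (0.18), Snx1 (0.18), Nipsnap2 (0.19), Retsat (0.19), Ndufs3 (0.19) and Etfb (0.19), where the median over all tested probe sets was 0.58. Ndufa8 and Ndufs3 are subunits of respiratory complex I, Slc12a7 is a potassium-chloride cotransporter and Retsat is retinol saturase. Among the enzymes themselves, which made up the mean, Cpt2 (0.16) and Acaa2 (0.21) were nearest and Decr1 (0.54) and Acadl (0.63) farthest. The 8 nearest genes were chosen for this likeness, so their changes are no test of it: Ndufs3, for example, was at +1.32 in the double line against the KSR1 line and -0.66 in the KSR1 line against the GFP line.

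Summed markers of adipocytes, muscle and hepatocytes are given with those of other cell types. The 5 adipocyte markers on the array summed to 563 to 991 in the double line, 712 to 1325 in the KSR1 line, 549 to 931 in the H-RasV12 line and 556 to 854 in the GFP line, most of it from Lep, with Adipoq at 34.8 to 60.62 in the double line and 57.67 to 96.39 in the KSR1 line. The 8 muscle markers summed to 561 to 748 in the double line, 547 to 813 in the KSR1 line, 537 to 691 in the H-RasV12 line and 786 to 963 in the GFP line. The 5 hepatocyte markers summed to 143 to 196 in the double line and 184 to 308 in the KSR1 line. None of the 3 tested adipocyte and muscle markers was called in a comparison by limma. Of 6 epithelial markers, summing to 1680.2 to 2083 in the double line, 912 to 1630.3 in the KSR1 line, 615 to 875 in the H-RasV12 line and 644 to 1048 in the GFP line, 2 were tested and 1 rose (Krt19) in the double line against each other line. Krt19 read 1185, 1014 and 1427 in the double line and 678.4, 303.1 and 273.1 in the KSR1 line. Signals were 59.37, 91.93 and 119.3 in the H-RasV12 line and 137.5, 105.6 and 111.1 in the GFP line. It was also called higher in the KSR1 line than in the GFP line. Krt19 exceeded the filter value only on the double and KSR1 line arrays, so it passed the filter through those lines. Its calls against the H-RasV12 and GFP lines are therefore descriptions and no tests, and its part in the enzymes' changes was not tested. The 7 leukocyte markers summed to 1527 to 1788 in the double line and 1885 to 3739 in the KSR1 line, and the 5 endothelial markers to 131 to 236 and 188 to 436. The 1 tested leukocyte marker, Cd14, was called higher in the KSR1 line than in the GFP line.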

How the data were processed

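Total RNA was hybridised to Affymetrix mouse arrays, 3 per line. Each deposited value is an intensity on a linear scale, made with MAS5 per the submitters' processing notes, which name no version, and the authors' scaling was kept. Genes were named by the platform annotation, with current symbols from the RefSeq table of GRCm38.p6. Of the probe sets that are not controls, 10833 had 1 symbol, 396 several and 1193 none here.

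Tested probe sets had a signal over 181.4 (the median of all values) on 3 or more arrays. The added constant of 23 is the 20th percentile of all values, rounded, and understates changes of dim probe sets. limma 3.58.1 in R 4.3.3 fitted 4 group means with an intensity trend and two-sided tests, and the fit was tested on simulated data. Interval and call thresholds were 95% and 0.05. Motifs and figures used Python 3.11.15 (pandas 2.3.3, numpy 2.4.6, matplotlib 3.10.9).

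The members, gene lists and tests were chosen with earlier results of these data known. Named are all members, up to 4 called genes with the largest changes per list and comparison (a selection is given), the regulators and markers, and the 8 genes most like the members. Second probe sets, Ppargc1a and the Ksr1 check were named after their values were seen. A list gene is represented by its brightest probe set. The planned ratio of Hadha to Hadhb was not computed, since no probe set is named for Hadha. Same-numbered arrays deviated together, with correlations of 0.162 to 0.432 between the double and KSR1 lines and 0.209 to 0.511 between the KSR1 and GFP lines, and the labels do not say what a number marks. Alternatives were other constants, filters and scalings, no trend, a replicate block, fewer groups or arrays, and leaving out each array.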

Additional observations from a re-analysis of the deposited data

Results flagged for a closer look

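For 5 of the 8 tested enzymes the H-RasV12 response differed between lines with and without KSR1 by the interaction test itself. Over all probe sets 4.16% had a called positive interaction and 3.54% a called negative one. The difference of responses (log2, with KSR1 minus without) was 1.76 for Hadhb, 1.70 for Acaa2, 1.72 for Decr1, 1.04 for Cpt2 and 1.42 for Etfdh, with limma adjusted p-values of 0.0009, 0.00167, 0.00458, 0.0279 and 0.0235 in that order. The first 3 were called in every alternative run, and the calls of Cpt2 and Etfdh ended in 7 and 5 of the fits without 1 array. Decr1 was not raised in the double line against the H-RasV12 line (+0.05) or the GFP line (-0.30). In the KSR1 line it was at -1.67 against the GFP line.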

How the results depend on the processing

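Of 1048 values of the 8 enzymes under the alternatives, 991 kept their direction and side of the threshold, 30 lost a call, 16 gained one and 11 changed sign, and 14 of 21 calls held in every alternative. The sign changes were of uncalled values, whose range over the fits without 1 array was -0.02 to 0.67 for Acadl in the double line against the KSR1 line, -0.11 to 0.19 for Decr1 against the H-RasV12 line, -0.03 to 0.43 for Cpt1a in the double line and -0.45 to 0.01 in the KSR1 line, both against GFP, and, in H-RasV12 against GFP, -0.54 to 0.05 for Acadl, -0.15 to 0.07 for Cpt2 and -0.15 to 0.07 for Hadhb. Acadl was 0.14 there with replicates 2 and 3 alone. Leaving out 1 array, the enzymes called numbered 1 to 5 in the double line against GFP, 1 to 2 in KSR1 against GFP and 3 to 6 for the interaction. All probe sets called numbered 482 to 934 in KSR1 against GFP (813 with all arrays), 339 to 679 for the interaction (531) and 1 to 23 in H-RasV12 against GFP (5), the last also 8 without the filter, 10 with the replicate block, 2 with only those groups and 53 with replicates 2 and 3 alone. Median centring moved the share of higher calls to 69.1% for the double line against the KSR1 line (54.1% without), to 68.7% for the interaction (54.0%) and to 16.7% for H-RasV12 against GFP (0.0%). Same-numbered arrays of different lines had correlations of their deviations from -0.021 to 0.511, against -0.441 to 0.241 for other pairs. All 3 same-number pairs exceeded 0.1 in the double line against the KSR1 line and in KSR1 against GFP, where the block changed no enzyme's call. Not all same-number pairs exceeded 0.1 in the double line against the H-RasV12 or GFP line or in H-RasV12 against GFP. Over the whole series, 10 of 12 arrays correlated best with an array of their own number in another line, a hint from the data, not the design. With the number as a block, 6 enzymes were called in the double line against the KSR1 line, 6 against the H-RasV12 line, 5 against GFP, 2 in KSR1 against GFP, 0 in H-RasV12 against GFP and 6 for the interaction, while calls over all probe sets numbered 1290, 1265, 1317, 1047, 10 and 741 in that order. The block added calls of Cpt2 against the H-RasV12 line (adjusted p = 0.0355) and GFP (0.0403), and of Cpt1a against the H-RasV12 line (0.0167) and for the interaction (0.0314); the causes were not tested. Dim probe sets (Acadvl, Ppargc1a) limit what these arrays can show.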

Other observations

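The spread within a line differed between enzymes. In the KSR1 line the coefficient of variation was 3.96% for Etfdh and 6.38% for Acadm, against 60.2% for Acadl, and in the double line it was 5.38% for Acaa2 against 46% for Acadm. Cpt1a read highest on the replicate 1 array in each of the 4 lines (3269 in the double line, 2683 in the KSR1 line, 2548 in the H-RasV12 line and 3459 in the GFP line), a pattern noticed after its values were seen. Its cause was not tested.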
